A study of Rattus norvegicus with 20 samples.

Results

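The regions described here are NF-kB p65 peaks at bidirectional promoters in rat liver. A peak was counted as bidirectional when its array's peak list gave it to at least 2 genes with different names on opposite strands. The rule used only gene names and strands and no measured level. It found 5817 bidirectional peaks among 108718 peaks on 20 arrays. Another 101438 peaks were listed for 1 gene, and 1463 were listed for several genes on 1 strand only. Of the bidirectional peaks, 5594 were listed for 2 genes and 223 for more.

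The study compared p65 binding before and after partial hepatectomy in rats fed ethanol or a control diet. The animals were wild-type male Sprague Dawley rats aged 8 to 10 weeks. They took a liquid diet for 5 weeks in which 36% of calories came from ethanol, or a pair-fed diet with carbohydrate in place of the ethanol. Then 70% of the liver, the left lateral and median lobes, was removed. The removed lobes gave the 0h chromatin, and the remnant liver gave the chromatin at 1h and 6h, so the 0h samples come from other lobes than the later ones. Each of the 6 groups held 3 arrays at 0h and 1h or 4 arrays at 6h. Chromatin of whole liver was precipitated with a rabbit polyclonal antibody to p65 and hybridised against a reference to 2-colour promoter arrays. The reference is input DNA by the channel labels and IgG-precipitated DNA by the labelling text. In whole liver, fewer cells of a type and less binding per cell cannot be told apart.

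The array identifiers point to 4 array runs on 11 slides. Of the 6 arrays at 0h, 5 belonged to a first run that held no other time, so 0h against a later time cannot be told apart from the run. The third run held 11 arrays, all from 1h and 6h and from both diets, and the comparison of 6h with 1h was therefore also made within it. The array names further point to 16 animals, 4 of which gave 2 arrays, at 0h and at a later time. The tests did not use this pairing and treated all arrays as separate. The labels number biological replicates without naming animals, so the p-values measure only how far these samples scatter, and part of that scatter may be technical. Lists held 2874 to 9387 peaks per array.

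A bidirectional promoter is a stretch of DNA from which a pair of neighbouring genes is transcribed in opposite directions, away from each other. In mammals such pairs often have their starts close together, lie in CpG islands without a TATA box, and encode widely expressed proteins of DNA repair, mitochondria, protein synthesis and RNA processing. p65 (Rela) is the main activating subunit of NF-kB, which enters the nucleus after signals such as tumour necrosis factor and binds a degenerate decamer. In the regenerating liver NF-kB is known as one of the factors activated soon after hepatectomy.

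The promoters below are shown because the results turn on them. Gak and Sec61b lie at pairs with peaks on most arrays; Ints11, Surf1 and Polh show short motifs, most of them more frequent at bidirectional promoters; Hspe1 and Tap1 hold an NF-kB consensus. Each runs 5′ to 3′ on the strand of its gene from 250 bases before the start to 50 bases after it, from RefSeq on GRCr8. The build of the peak positions is not given in the sources used here, so positions of peaks are given only as distances. Capitals mark matches, on either strand, to the NF-kB consensus, CCGGAAG (the core of many ETS family sites), CCAAT (the core of the NF-Y site) and the palindromic core of the NRF1 site. A CCAAT on 1 strand can overlap one on the other, as in CCAATTGG at Ints11, and the NF-kB match at Hspe1 overlaps CCGGAAG on both strands.
Gak, chr14:1234022-1234321, plus strand: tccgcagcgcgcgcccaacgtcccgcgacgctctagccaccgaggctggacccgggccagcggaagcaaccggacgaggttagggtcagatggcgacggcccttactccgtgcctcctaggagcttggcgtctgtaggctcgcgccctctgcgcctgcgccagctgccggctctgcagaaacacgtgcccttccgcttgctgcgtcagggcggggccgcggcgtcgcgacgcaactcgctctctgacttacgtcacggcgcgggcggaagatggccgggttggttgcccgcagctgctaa
Sec61b, chr5:66568934-66569233, plus strand: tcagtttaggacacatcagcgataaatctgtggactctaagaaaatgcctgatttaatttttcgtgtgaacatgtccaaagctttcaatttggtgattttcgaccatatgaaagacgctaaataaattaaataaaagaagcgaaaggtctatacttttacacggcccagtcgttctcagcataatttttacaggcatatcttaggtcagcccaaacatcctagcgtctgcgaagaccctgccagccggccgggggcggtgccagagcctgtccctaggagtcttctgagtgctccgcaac
Ints11, chr5:171761155-171761454, plus strand: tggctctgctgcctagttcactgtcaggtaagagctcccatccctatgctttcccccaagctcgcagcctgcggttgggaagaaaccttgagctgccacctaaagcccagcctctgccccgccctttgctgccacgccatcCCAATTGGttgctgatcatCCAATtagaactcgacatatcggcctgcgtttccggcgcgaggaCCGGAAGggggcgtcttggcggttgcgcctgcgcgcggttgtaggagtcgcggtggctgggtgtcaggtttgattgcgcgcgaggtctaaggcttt
Surf1, chr3:30642661-30642960, minus strand: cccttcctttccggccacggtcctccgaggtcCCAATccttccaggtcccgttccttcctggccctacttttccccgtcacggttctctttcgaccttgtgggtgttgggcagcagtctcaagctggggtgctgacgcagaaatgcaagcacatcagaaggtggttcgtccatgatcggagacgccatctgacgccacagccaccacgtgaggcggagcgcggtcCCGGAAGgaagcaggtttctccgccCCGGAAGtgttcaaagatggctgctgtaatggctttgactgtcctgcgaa
Polh, chr9:22275679-22275978, plus strand: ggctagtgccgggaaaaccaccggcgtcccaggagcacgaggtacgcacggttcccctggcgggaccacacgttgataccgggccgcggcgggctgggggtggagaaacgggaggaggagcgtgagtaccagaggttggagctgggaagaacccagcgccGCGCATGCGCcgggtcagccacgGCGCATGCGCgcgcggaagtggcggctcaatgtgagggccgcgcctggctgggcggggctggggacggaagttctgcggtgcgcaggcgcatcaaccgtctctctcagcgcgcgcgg
Hspe1, chr9:64084077-64084376, plus strand: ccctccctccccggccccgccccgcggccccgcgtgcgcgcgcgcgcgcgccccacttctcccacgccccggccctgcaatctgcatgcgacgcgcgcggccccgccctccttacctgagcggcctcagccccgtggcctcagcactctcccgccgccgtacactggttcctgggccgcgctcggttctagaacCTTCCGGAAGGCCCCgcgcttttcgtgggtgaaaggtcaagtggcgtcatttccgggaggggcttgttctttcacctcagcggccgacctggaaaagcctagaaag
Tap1, chr20:4668494-4668793, minus strand: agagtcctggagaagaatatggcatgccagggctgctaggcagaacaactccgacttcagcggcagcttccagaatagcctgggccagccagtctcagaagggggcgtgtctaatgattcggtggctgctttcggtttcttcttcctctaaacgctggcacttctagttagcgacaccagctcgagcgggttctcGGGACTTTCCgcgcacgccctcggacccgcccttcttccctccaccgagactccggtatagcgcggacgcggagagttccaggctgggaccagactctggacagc

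In these 300-base stretches the partner's start lay inside the printed sequence at 3 genes. Cptp, which encodes a ceramide-1-phosphate transfer protein, starts at base 112 of the Ints11 sequence, 139 bp from the Ints11 start. Surf2 starts at base 206 of the Surf1 sequence, 45 bp from the Surf1 start, and Xpo5, a nuclear export receptor for microRNA precursors, starts at base 67 of the Polh sequence. The other partners start farther upstream: Tmem175 254 bp from Gak, Alg2 297 bp from Sec61b, Hspd1 290 bp from Hspe1 and Psmb9 457 bp from Tap1. The Gak and Sec61b sequences held none of the 4 motifs. A peak was centred within 1000 bp of the Gak and Tmem175 starts on 17 arrays and within that distance of the Alg2 and Sec61b starts on 17 arrays. The counts were lower at the other pairs, with 7 arrays at Ints11 and Cptp, 7 at Surf1 and Surf2, 6 at Polh and Xpo5, 4 at Hspe1 and Hspd1 and 0 at Tap1 and Psmb9.

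Bidirectional and 1-gene promoters differed more in base composition than in how often they held the NF-kB decamer. Of 1937 genes at bidirectional promoters, 1651 had a RefSeq promoter, and so did 9593 of 11975 genes that were alone at their promoter. CpG-rich promoters, meaning GC content above 50% with a CpG observed to expected ratio above 0.6, made up 70.9% of the bidirectional and 48.8% of the 1-gene promoters, against 33.5% of all 27457 RefSeq promoters. CCGGAAG was found in 25.0%, 11.4% and 9.22% of these 3 sets. The NRF1 core was found in 2.60%, 1.22% and 0.932%, and GGGCGG, the core of the Sp1 site, in 59.2%, 48.0% and 34.9%. The TATA box letters TATAAA were found in 5.94%, 13.3% and 14.3%. The NF-kB consensus was found in 8.96%, 8.44% and 7.60%, and CCAAT in 39.7%, 37.8% and 37.7%. Both strands were searched each time, and a match is a description of the sequence only.

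Pairs with close starts were CpG-rich and held CCGGAAG more often than wider pairs, and held TATAAA less often. Where the starts lay at most 1000 bp apart, 84.5% of promoters were CpG-rich, 30.6% held CCGGAAG and 3.90% held TATAAA. Where they lay farther apart the shares were 56.2%, 18.2% and 8.14%. The NF-kB consensus was found in 8.17% of the close and 9.84% of the wider pairs.

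The label of these regions was checked on the listed starts. Of the bidirectional peaks, 97.2% lay at genes that pointed away from each other, but only 40.6% at starts at most 1000 bp apart, and 56.6% at wider pairs. The median distance between the starts was 1623 bp. A peak's centre lay between the starts for 40.5% of the peaks. Its median distance to the nearest start was 818 bp, against 1183 bp for peaks with 1 gene. The peaks thus include many divergent neighbours that are farther apart than a shared promoter in the narrow sense. The median distance between starts differed among groups. It was 814 bp in carbohydrate at 0h, 1605 bp at 1h and 2704.5 bp at 6h, and 1654, 1413 and 3050 bp in ethanol. For a count by promoter, the array's probes were joined into 14723 tiled regions. Genes on both strands were listed for 928 of them and 1 gene for 12149, while 230 had several genes on 1 strand and 1416 had no listed start. Since starts are known here only from the peak lists, a gene that never received a peak is missing, and some regions counted as having 1 gene may have a partner.

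Bidirectional peaks took up a smaller share of the peak lists at 6h than at 1h in both diets. In carbohydrate-fed rats the share was 5.12%, 5.97% and 7.52% on the 3 arrays at 1h and 2.02%, 3.92%, 3.71% and 3.66% on the 4 arrays at 6h. In ethanol-fed rats it was 6.91%, 7.78% and 8.58% at 1h and 2.54%, 2.22%, 2.30% and 3.13% at 6h. Every array at 6h lay below every array at 1h. The group means were 6.20% ± 1.21 (SD, n = 3) and 3.33% ± 0.881 (n = 4) in carbohydrate and 7.76% ± 0.831 (n = 3) and 2.55% ± 0.411 (n = 4) in ethanol. Over both diets the share was 4.04 percentage points lower at 6h, a change of -4.04, with an exact permutation p of 0.000816 within diets, the smallest this design allows, and 0.00122 after adjustment over the 3 comparisons of times. Within the third run the change was -4.43 points (exact permutation p = 0.00667, again the smallest possible). Taken alone, the change was -2.88 points in carbohydrate and -5.21 points in ethanol, each with an exact permutation p of 0.0286, the smallest possible, which became 0.0714 after adjustment over the 10 planned comparisons.

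The shares at 0h were 5.74%, 8.75% and 5.50% in carbohydrate and 4.69%, 7.79% and 3.50% in ethanol. The second array stood highest in both diets, and the group means of 6.66% ± 1.81 and 5.32% ± 2.22 (SD, n = 3) had wide spreads. Over both diets the share was lower at 6h than at 0h by 3.06 points (-3.06; exact permutation p = 0.000816, adjusted 0.00122), although the lowest 0h array lay below the highest 6h array. Within diets, as planned, the change was -3.34 points in carbohydrate and -2.78 in ethanol. Each had an exact permutation p of 0.0286, the smallest possible, and 0.0714 after adjustment. All comparisons with 0h coincide with the array run. The change from 0h to 1h was 0.987 points (exact permutation p = 0.345).

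No comparison of the diets in this share had an adjusted p under 0.05. With 3 arrays against 3 at 0h and at 1h, the exact permutation p could not go below 0.1. Those tests could therefore not have shown a difference. Ethanol minus carbohydrate was -1.34 points at 0h (exact permutation p = 0.5, adjusted 0.625), 1.55 points at 1h (p = 0.2, adjusted 0.333) and -0.779 points at 6h (p = 0.143, adjusted 0.286). Over all times it was -0.248 points (exact permutation p = 0.695, adjusted 0.7), with diets exchanged within each time. The fall from 1h to 6h was 2.33 points deeper in ethanol, with an exact permutation p of 0.0343 that was 0.103 after adjustment over 3 such differences.

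The number of bidirectional peaks at 6h lay below that at 1h on every ethanol array, while the carbohydrate arrays overlapped. Arrays of ethanol-fed rats held 409, 656 and 805 of them at 1h and 102, 80, 129 and 166 at 6h. Their whole lists did not overlap either, with 5916, 8435 and 9387 peaks at 1h and 4023, 3602, 5605 and 5303 at 6h. Arrays of carbohydrate-fed rats held 250, 320 and 455 at 1h and 75, 263, 227 and 241 at 6h. Their whole lists overlapped, with 4881, 5358 and 6052 peaks at 1h and 3722, 6704, 6121 and 6591 at 6h. The first carbohydrate array at 6h, the only array of the fourth run, had the fewest of all. At 0h the counts were 165, 356 and 334 in carbohydrate and 162, 460 and 162 in ethanol.

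**Figure D1:**
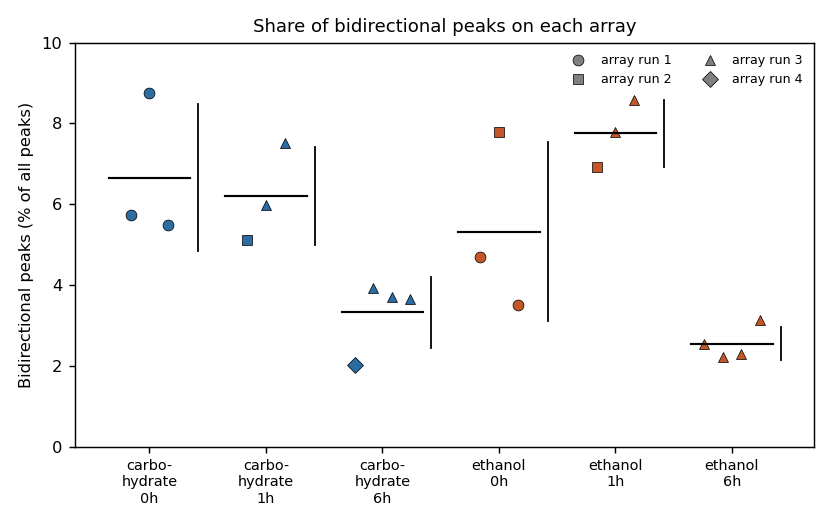
Share of each array's peaks that were bidirectional, in percent, by diet and time; each point is 1 array with its run as the symbol, horizontal lines are group means and vertical lines 1 SD to either side. Arrays at 6h lie between 2.02% and 3.92%, all below the arrays at 1h, which start at 5.12%.

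The lower share at 6h was also found with other ways of choosing peaks. With only peaks centred within 1000 bp of a start, the change from 1h to 6h was -5.93 points, and with the same number of top-scoring peaks from every array it was -5.14 points. With peaks at a listed false discovery rate of at most 0.05 the change was -4.94 points, and for pairs with starts at most 1000 bp apart -1.86 points. Peaks with several genes on 1 strand, made up 1.53% of peaks at 1h and 1.37% at 6h (exact permutation p = 0.104). The log2 ratio of bidirectional to same-strand peaks was 2.18 at 1h and 1.07 at 6h (exact permutation p = 0.000816).

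Base composition moved with time in the same comparison, and its part in the result was tested only as given here. CpG-rich promoters held 57.2% of the 1-gene peaks at 1h and 34.8% at 6h, a difference of -22.4 points (exact permutation p = 0.000816), and 55.1% at 0h. Among bidirectional peaks the CpG-rich part was 51.0% at 1h and 46.1% at 6h (exact permutation p = 0.140). Within CpG-rich promoters the share of bidirectional peaks was still lower at 6h, at 4.52% ± 1.03 (SD, n = 8 arrays) against 7.33% ± 1.04 (n = 6) at 1h, with an exact permutation p of 0.00163. Within CpG-poor promoters it was 1.41% against 3.48% (exact permutation p = 0.000816). Peaks of all classes within 1000 bp of a start made up 49.6% of the lists at 1h and 44.4% at 6h (exact permutation p = 0.0245).

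**Figure D2:**
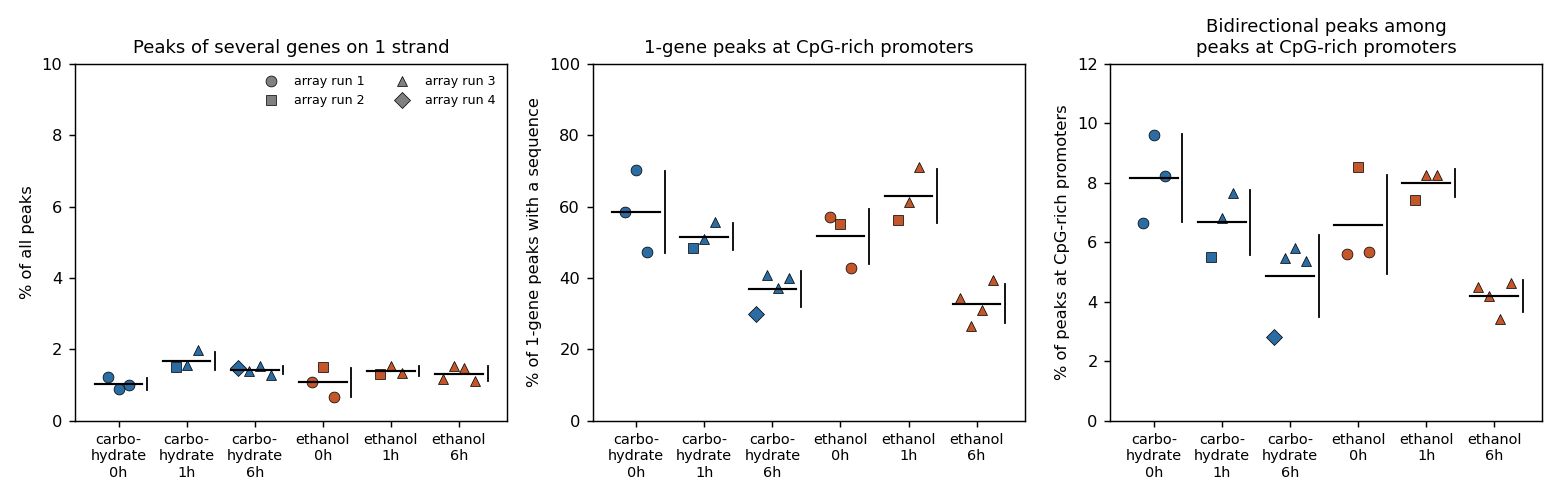
From left to right, peaks with several genes on 1 strand as percent of all peaks, 1-gene peaks at CpG-rich promoters as percent of 1-gene peaks with a sequence, and bidirectional peaks as percent of peaks at CpG-rich promoters; each point is 1 array with its run as the symbol, horizontal lines are group means and vertical lines 1 SD to either side. The CpG-rich share of 1-gene peaks has a mean of 57.2% over the 1h arrays and 34.8% over the 6h arrays.

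Averaged over all arrays, the scores of bidirectional peaks ranked close to those of 1-gene peaks. The score is the authors' own value of a peak and was ranked within each list. The median percentile rank of bidirectional peaks minus that of 1-gene peaks averaged -0.10 percentile points over the 20 arrays (SD 6.56), above 0 on 9 arrays and below on 9 (sign-flip permutation p = 0.948). The group means were -0.42 in carbohydrate at 0h, 2.17 at 1h and -7.15 at 6h, and 0.90, 6.26 and -0.02 in ethanol. From 1h to 6h this rank difference changed by -7.80 points over both diets (exact permutation p = 0.0196, unadjusted). Within diets the change was -9.32 points in carbohydrate (exact permutation p = 0.0286, the smallest possible) and -6.28 in ethanol (p = 0.514). The lists differ in length, which limits a comparison of ranks between times. The ethanol arrays at 6h spread widely (SD 11.2). Among the top 10% of each list by score, 1.08% to 11.5% of peaks were bidirectional.

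How often peaks recurred at bidirectional promoters is given as a description, since a promoter joins this class only once peaks are listed there for genes on both strands, and since these tiled stretches were longer. A peak lay anywhere in the region on a mean of 7.96 arrays at bidirectional and 6.10 at 1-gene promoters, whose median tiled lengths were 8187.5 and 5273 bp. Per kilobase the order turned, with 0.973 arrays against 1.21. At least 10 of the 20 arrays had such a peak at 314 bidirectional promoters (33.8%), 17.8% of 1-gene promoters and 17.6% of all regions. At least 15 arrays had one at 42 (4.53%), against 1.66% of all regions. A peak listed for both strands was found at 863 of the 928 promoters, on a median of 4 arrays. It was found on at least 10 arrays at 107 promoters, on at least 15 at 7, and on no more than 19.

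Recurrence was also counted by group. Groups at 6h held 4 arrays and the others 3, so a peak on at least 2 arrays is easier to reach at 6h, and the classes are best read side by side within a group. A peak on at least 2 arrays of ethanol at 1h was found at 68.2% of bidirectional, 37.3% of 1-gene and 36.4% of all regions. At 6h in ethanol the figures were 27.2%, 31.6% and 28.7%, with bidirectional promoters below 1-gene promoters. In carbohydrate they were 43.5%, 26.4% and 25.6% at 1h and 42.1%, 40.2% and 37% at 6h. At 0h they were 35.9%, 18.9% and 18.5% in carbohydrate and 30.2%, 19.0% and 18.1% in ethanol.

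The promoter with a bidirectional peak on most arrays was that of Dlgap2, a synaptic scaffold gene, and Erich1, whose starts lay 4989 bp apart, with peaks on 19 arrays. Its signal, the mean log2 ratio in the 500 bp window with the highest mean over all arrays, was 0.59, 0.42 and 0.80 in carbohydrate at 0h, 0.60, 0.89 and 0.43 at 1h and 0.57, 0.82, 0.83 and 0.96 at 6h. In ethanol it was 0.69, 0.70 and 0.64, then 0.77, 1.01 and 1.19, then 0.76, 0.52, 0.63 and 0.86. All 20 values lay above 0 and the groups overlapped. Next came the promoter of Prrc2a, which encodes an RNA-binding protein of the major histocompatibility region, and E230034O05Rik, with peaks on 18 arrays and a mean signal of 0.66 ± 0.39 (SD, n = 20). There, 2 arrays of ethanol at 1h stood far above all others, with 1.60 and 1.72, while the first array of that group had 0.33. The ethanol arrays at 6h read 0.39, 0.32, 0.52 and 0.70, and the difference from 1h was -0.73 (SE 0.23, limma adjusted p = 0.0191) with overlapping groups.

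Alg2, a mannosyltransferase of N-glycan assembly, and Sec61b, a subunit of the channel through which proteins enter the endoplasmic reticulum, had peaks on 17 arrays. Their window read 0.26, 0.55 and 0.84 in carbohydrate at 0h, 0.57, 0.53 and 0.42 at 1h and 0.34, 0.52, 0.72 and 0.84 at 6h. In ethanol the values were 0.61, 1.06 and 0.32, then 0.54, 0.83 and 0.98, then 0.09, 0.11, 0.47 and 0.19. The 4 ethanol arrays at 6h were all below the 3 at 1h, and the difference was -0.57 (SE 0.18, limma adjusted p = 0.0229). At Gak, a kinase of clathrin uncoating, and Tmem175, a lysosomal ion channel gene, peaks were listed on 17 arrays. The signal there had a mean of 0.44 ± 0.21 (SD, n = 20), and no comparison of groups passed the limma test.

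The other promoters among the 15 with the most peaks covered varied functions. Peaks were listed on 15 arrays at Dbndd1 and Gas8 (a part of the axonemal dynein regulator), at Cbr1 (carbonyl reductase) and Setd4, and at Akap3 and Ndufa9 (a subunit of respiratory complex I). Peaks were listed on 14 arrays at Cideb (a lipid droplet protein of hepatocytes) with the leukotriene B4 receptor genes Ltb4r and Ltb4r2, and at Sobp with 9030612E09Rikl. The same number was found at Jmjd6 and Mettl23 with the splicing factor gene Srsf2 and Mfsd11, and at Amh with Plekhj1 and the splicing factor gene Sf3a2. Also with 14 arrays were Mnat1 and Six4, Cptp with Ints11 and the sweet taste receptor gene Tas1r3, Bckdha (branched-chain amino acid breakdown) and Exosc5 (a part of the RNA exosome), and the cluster of Igflr1, Lin37, Psenen and U2af1l4. Promoters with 14 arrays were ordered by mean signal, and that of Iapp and Slco1a5, also with 14, fell outside the 15. Its signal was 0.64 higher at 6h than at 1h in carbohydrate (limma adjusted p = 0.00078). Among the 11 promoters from Dbndd1 onwards, mean signals over the 20 arrays ran from 0.33 ± 0.25 (SD) at Akap3 and Ndufa9 to 0.60 ± 0.18 at Cideb. Of these 11 promoters only that of Bckdha and Exosc5 changed between 1h and 6h, with a fall of 0.64 in ethanol (SE 0.19, limma adjusted p = 0.015). Starts were close at some, such as 134 bp at Jmjd6 and Mettl23, and far at others, such as 8891 bp at Mnat1 and Six4. Close starts did not mean that the signal lay there. The window lay 9536 bp from Jmjd6 and 9402 bp from Mettl23, and a peak was centred within 1000 bp of their starts on 6 arrays. At Cptp and Ints11 the window lay 5950 and 6116 bp away, with such a peak on 7 arrays. These distances are to the closest pair only. Srsf2 and Mfsd11, and Tas1r3, start in the same regions, and the windows may lie near their starts.

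**Figure D3:**
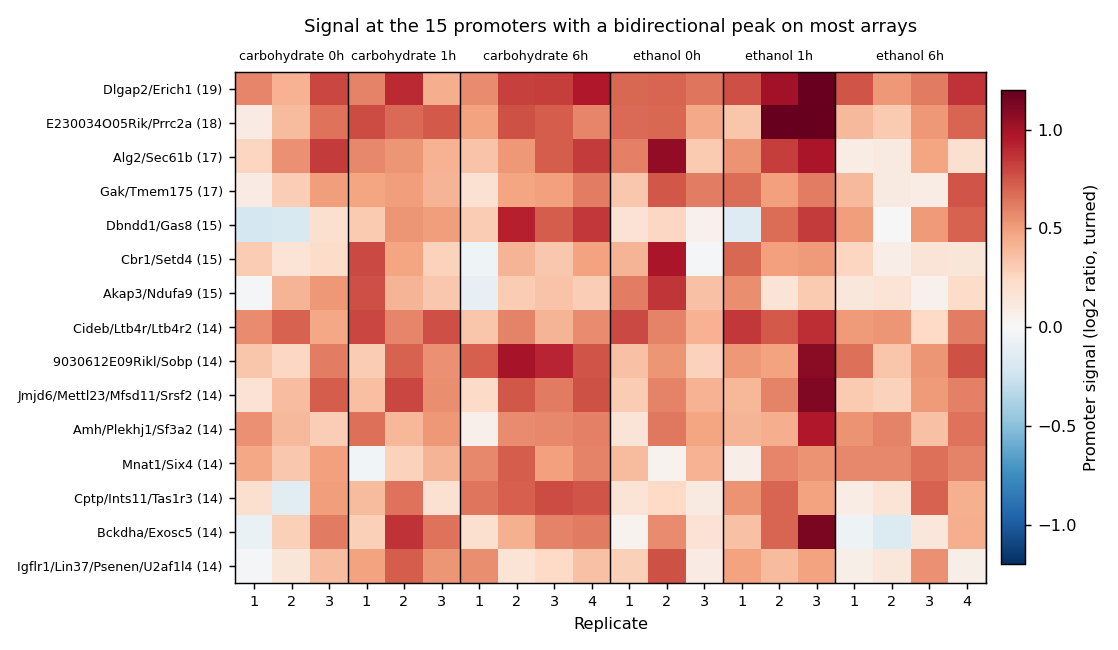
Promoter signal of the 15 bidirectional promoters with peaks on most arrays, as log2 ratio with the sign turned so that peaks are positive; each column is 1 array, ordered by group, and the colour scale stops at 1.2 in both directions. Dlgap2 and Erich1 are above 0 on every array, and Prrc2a with E230034O05Rik is highest on the second and the third ethanol array at 1h, at 1.60 and 1.72.

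The windows often lay away from the starts. The median distance from a window's centre to the nearest start was 1074 bp at bidirectional promoters, 47.1% of which had it within 1000 bp, and 977.5 bp at 1-gene promoters (50.5%). A second measure therefore took the mean of the probes within 500 bp of a start, and it is given below for counts and for the promoters that lead each comparison. The deposited log2 ratios were negative at 99.9% to 100% of the authors' peaks on each array, so the ratios were multiplied by -1 and centred per array. That direction is likely from the peaks but is stated nowhere in the sources used here, and values in the deposited direction are given with the settings. Shares, ranks and recurrence do not depend on it.

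Over all 20 arrays the mean signal of the 928 bidirectional promoters was 0.03 higher on the log2 scale than that of the 1-gene promoters (SD 0.05, above 0 on 14 arrays, sign-flip permutation p = 0.00727). A promoter joins this class only through peaks listed on these same arrays. Its window is also the highest of a longer tiled stretch (median 8187.5 against 5273 bp). This p-value is therefore not independent of how the members and windows were chosen. The difference changed with time. It was 0.04 at 0h (above 0 on 5 of 6 arrays, exact sign-flip permutation p = 0.0625), 0.09 at 1h (6 of 6 arrays, p = 0.0312) and -0.01 at 6h (3 of 8 arrays, p = 0.117). From 1h to 6h it changed by -0.10 (exact permutation p = 0.000816, the smallest possible), and by -0.12 within the third run (p = 0.00667, the smallest possible). With ratios in their deposited direction and the window chosen anew, the sign of that change turned: the difference was -0.0019 at 1h (above 0 on 2 of 6 arrays) and 0.04 at 6h (8 of 8 arrays), a change of 0.05 (exact permutation p = 0.000816). The overall difference was small and turned with the measure. It was -0.01 with probes within 500 bp of a start and -0.02 against promoters with several genes on 1 strand. Among tiled regions of a length both classes share, 31 against 542, it was -0.0018. The change from 1h to 6h kept its direction with probes near the start, at -0.12 (exact permutation p = 0.000816). It was not seen between CpG-rich promoters of the 2 classes, 508 bidirectional and 4754 with 1 gene, where it was 0.01 (exact permutation p = 0.635, and -0.01 with p = 0.433 within the third run). CpG-rich minus CpG-poor 1-gene promoters changed by -0.19 between the same times (exact permutation p = 0.000816).

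**Figure D4:**
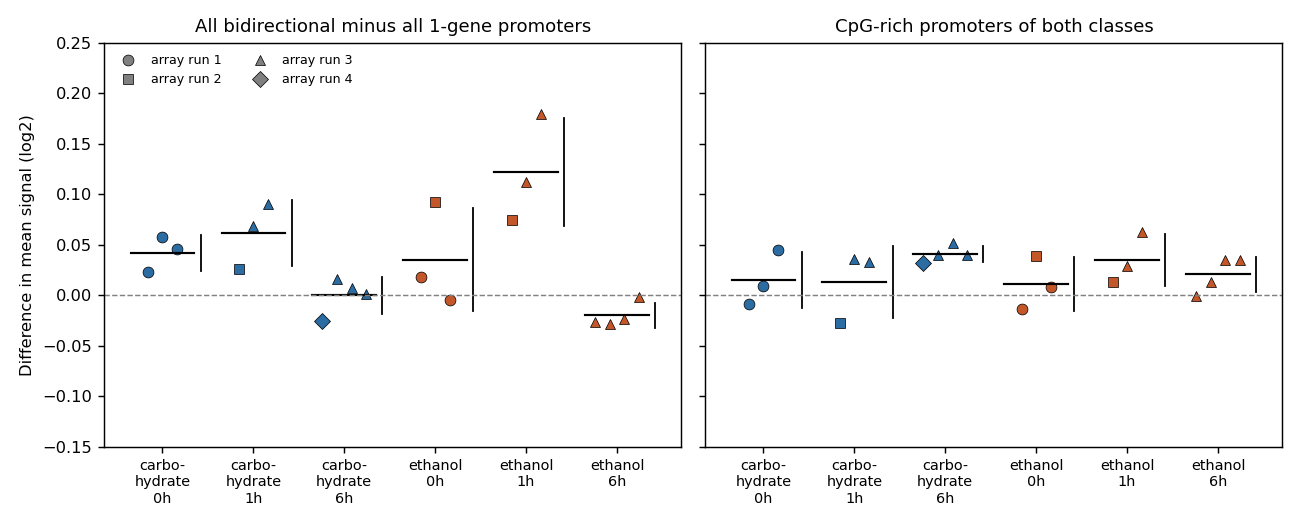
Mean promoter signal of bidirectional minus 1-gene promoters in log2 units, for all promoters (left) and CpG-rich promoters of both classes (right), by diet and time; each point is 1 array with its run as the symbol, horizontal lines are group means and vertical lines 1 SD to either side. On the left all 6 arrays at 1h and 3 of 8 arrays at 6h are above 0, and on the right the change from 1h to 6h is 0.01.

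Promoter by promoter, the ethanol groups showed signal falling from 1h to 6h at many bidirectional promoters. In limma over all 14540 promoters with a window, 27.6% of the 928 were lower at 6h and 1.19% higher at an adjusted p under 0.05. Over all promoters 16.2% were lower and 7.83% higher. The median difference was -0.22 at bidirectional promoters and -0.08 over all. Promoters join this class through peaks on these same arrays, and ethanol at 1h gave 1870 of the 5817 bidirectional peaks. The excess of falls over all promoters is therefore not independent of how the members were chosen. That limit also holds for the later counts of promoters called. In the deposited direction, with the window chosen anew, 4 were higher and 1 lower with a median of 0.01, against 0.351% higher and 0.653% lower of all promoters. With the sign turned, CpG-rich 1-gene promoters gave shares near those of bidirectional promoters, with 24.1% lower, 1.51% higher and a median of -0.20. The other classes had more rises. Of the CpG-poor 1-gene promoters 9.04% were lower and 14.1% higher, and of the promoters with several genes on 1 strand 30.6% were lower and 9.61% higher. Within the third run, 366 bidirectional promoters were lower and 18 higher, against 24.6% and 10.8% of all. With probes within 500 bp of a start, 318 were lower and 11 higher, against 15.8% and 10.8% of the 13298 promoters with such probes. Without the third ethanol array at 1h the calls in either direction came down from 267 to 127. Shares of all promoters are not given for that refit, so the drop is not particular to bidirectional promoters on these values.

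The largest fall was at Sts (steroid sulfatase) and Ptges3l1, where the ethanol arrays read 1.07, 0.95 and 0.53 at 1h and -0.37, -0.51, -0.60 and -0.25 at 6h. The difference was -1.28 (SE 0.22, limma adjusted p = 0.000346), and the groups did not overlap. At Esrp2, a splicing regulator of epithelial cells and hepatocytes, and Pla2g15, a lysosomal phospholipase, the values were 1.47, 1.24 and 1.33 at 1h and 0.06, 0.00, 0.03 and 0.27 at 6h. That difference was -1.26 (SE 0.22, limma adjusted p = 0.000427). The starts of this pair lay 9087 bp apart, the window lay 1192 bp from Esrp2, and no array listed a peak there for both genes. Both promoters read as high on the second ethanol array at 0h, the only 0h array of the second run, at 1.07 and 1.47, while the other ethanol arrays at 0h read between -0.34 and 0.12. This array shares its slide with the first 1h array of each diet. With probes within 500 bp of a start, the ethanol difference from 1h to 6h was -0.13 at Sts (limma adjusted p = 0.451) and -0.40 at Esrp2 (limma adjusted p = 0.00388).

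The remaining promoters among the 5 largest falls were Eef2, Hirip3 and Ppcs with their partners, each higher on every ethanol array at 1h than on any at 6h. At Eef2 (translation elongation factor), Pias4 (a SUMO ligase) and Dapk3, the difference was -1.13 (SE 0.26, limma adjusted p = 0.00344). At Hirip3 and Ino80e, whose starts lay 61 bp apart, it was -1.12 (SE 0.23, limma adjusted p = 0.00173). At Ppcs, an enzyme of coenzyme A synthesis, and Zmynd12, it was -1.09 (SE 0.21, limma adjusted p = 0.000967). Near the starts the differences were -0.48, -0.49 and -0.57, each still with a limma adjusted p under 0.05. Prelid1, a mitochondrial lipid transfer gene, and Rab24 had bidirectional peaks on all ethanol arrays at 0h and 1h and on none at 6h. The window there read 0.79, 0.73 and 1.28 at 1h and 0.10, 0.00, -0.01 and 0.16 at 6h, a difference of -0.87 (SE 0.15, limma adjusted p = 0.000507), and of -0.24 near the starts (limma adjusted p = 0.0393).

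The rises in ethanol were fewer and smaller. At Polh, the DNA polymerase that bypasses ultraviolet damage, and Xpo5, bidirectional peaks were listed on all 4 arrays at 6h and on 1 of 3 at 1h. The window read 0.20, 0.17 and 0.54 at 1h and 1.06, 0.88, 0.27 and 1.05 at 6h. The third 6h array fell between the 1h values, and the difference was 0.52 (SE 0.17, limma adjusted p = 0.0254). The other leading rises were 0.56 at Galk2 and Cops2, 0.51 at Pdcd10 and Serpini1, 0.50 at the hair keratin-associated genes Krtap14 and Krtap15-1 and 0.47 at the olfactory receptor genes Or52e7 and Or52e8b. With probes within 500 bp of a start, the sign turned at Galk2 and Cops2 (-0.11) and at Pdcd10 and Serpini1 (-0.14), while Polh read 0.27 (limma adjusted p = 0.0464).

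In carbohydrate the same comparison gave calls in both directions. Of the bidirectional promoters, 87 were higher and 64 lower at 6h, against 17% and 6.92% of all promoters. This split depended on the part of the promoter measured: with probes within 500 bp of a start, 13 were higher and 128 lower, against 11% and 10.5% of all. Within the third run 93 were higher and 49 lower, against 18.7% and 5.34% of all. Among 1-gene promoters 8.69% of the CpG-rich ones were higher and 8.18% lower, near the 9.38% and 6.90% of bidirectional promoters, while 26.9% of the CpG-poor ones were higher. Without the first carbohydrate array at 1h the calls in either direction came down from 151 to 61. They came down to 97 and 96 without the third array at 1h or the fourth at 6h. Shares of all promoters are not given for these refits, which therefore describe the calls only.

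The largest rise in carbohydrate was at Col4a3 and Col4a4, the divergent genes for basement membrane collagen chains. The window read -0.75, 0.07 and -0.19 at 1h and 0.43, 0.66, 0.52 and 0.76 at 6h, a difference of 0.88 (SE 0.17, limma adjusted p = 0.000735). It lay 1198 bp from Col4a4 and 1765 bp from Col4a3, and within 500 bp of the starts the difference was -0.24. Rises of 0.76 at Krtap14 and Krtap15-1, 0.74 at Fhl4 and Tmem263, 0.71 at Bmx and Pir and 0.68 at Ormdl1 and the mismatch repair gene Pms1 followed. At Pms1 the sign turned near the starts (-0.07), where Krtap14 (0.21), Fhl4 (0.16) and Bmx (0.10) missed the limma threshold.

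The largest falls in carbohydrate were partly those seen in ethanol. Esrp2 and Pla2g15 read 1.06, 1.47 and 1.04 at 1h and -0.14, 0.31, 0.25 and 0.13 at 6h, a difference of -1.05 (SE 0.22, limma adjusted p = 0.00162). Eef2 with Pias4 and Dapk3 differed by -1.02 (SE 0.26, limma adjusted p = 0.00602). Next came Vtn (vitronectin, a plasma protein made by the liver) with Sarm1 and Sebox. There the window read 1.05, 1.34 and 0.79 at 1h and 0.17, 0.08, 0.39 and 0.04 at 6h, a difference of -0.89 (SE 0.22, limma adjusted p = 0.00525). C8g (a subunit of complement component 8) with Fbxw5 and Lcn12 differed by -0.85. Near the starts the falls passed the limma test at Esrp2 (-0.28), Eef2 (-0.30) and Vtn (-0.47) and missed it at C8g (-0.13, limma adjusted p = 0.311).

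**Figure D5:**
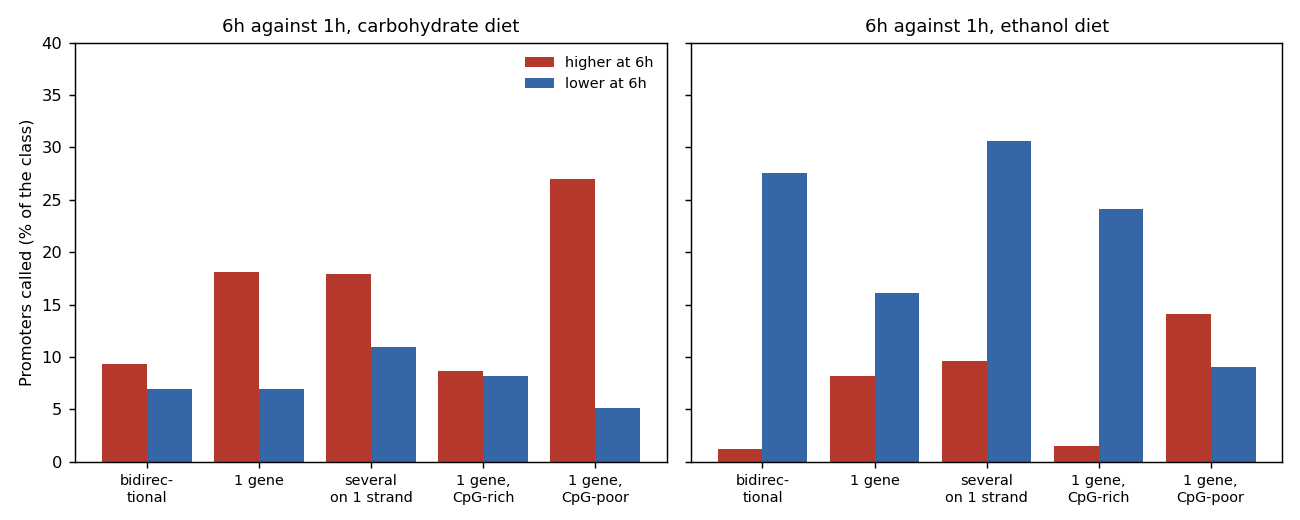
Percent of the promoters of each class called higher or lower at 6h than at 1h (limma, adjusted p under 0.05), for bidirectional promoters, 1-gene promoters, promoters with several genes on 1 strand, and 1-gene promoters split by CpG content; the left panel is carbohydrate and the right panel ethanol. In ethanol the lower calls are 27.6% of bidirectional, 30.6% of same-strand and 24.1% of CpG-rich 1-gene promoters.

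The calls against 0h coincide with the array run. At 1h in carbohydrate 84 bidirectional promoters were higher and 16 lower than at 0h, against 8.5% and 2.37% of all. At 6h in carbohydrate 113 were higher and 22 lower, against 18.7% and 1.99%. With the run as a term these calls came down to 0 and 3, against 0.0344% and 0.406% of all. Without single arrays they ran from 14 to 74 at 1h, lowest without the second 1h array. At 6h they ran from 15 to 187, lowest without the second 0h array and highest without the third. Shares of all promoters are not given for these refits. In ethanol 1 promoter was higher and 0 lower at 1h (0.213% and 0.0275% of all), and 0 were higher and 7 lower at 6h (0.365% and 0.633% of all). With the run as a term the ethanol calls at 6h rose to 1 higher and 63 lower, against 0.447% and 3.56% of all. Without the third 0h array 76 were called at 6h, against 9.06% of all, and without the first or the second 0h array, or the second or the third 6h array, 0 were. The promoter called at 1h was that of Mapk14, the stress kinase p38 alpha, and Slc26a8. Its window read 0.07, 0.72 and 0.05 at 0h and 0.70, 1.29 and 1.12 at 1h, and the difference was 0.75 (SE 0.17, limma adjusted p = 0.044). The second 0h array, from the second run, lay within the range of the 1h arrays. Without that array 121 bidirectional promoters were called at 1h in ethanol, against 8.57% of all, and without the first array at 1h 116 were, against 8.87%. Without any other single array of these groups 0 were called.

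No bidirectional promoter differed between diets at any time over the 20 arrays, and neither did any other promoter (0% of all called). At an unadjusted p under 0.05, limma gave 46 of the 928 at 0h, 101 at 1h and 131 at 6h, against 7.66%, 8.19% and 10.9% of all promoters. Within the third run 37 were higher and 1 lower in ethanol at 1h, against 2.16% and 0.261% of all, and 26 were lower and 0 higher at 6h, against 1.56% and 0.00688%. Without the first ethanol array at 1h, 20 were called at that time. The share of all promoters is not given beside that count, so it describes the calls and not bidirectional promoters in particular. The change from 1h to 6h was more negative in ethanol at 151 bidirectional promoters and less negative at 3 within the third run, against 10.2% and 0.578% of all and 15.2% of CpG-rich 1-gene promoters. Over all 20 arrays the same difference was called at 0 of 928.

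Whole peaks were also compared between groups, as a description, since the members were chosen through peaks on these same arrays. A peak anywhere in the region on all 3 ethanol arrays at 1h and on none of the 4 at 6h was found at 138 bidirectional promoters (14.9%) and at 6.86% of all regions. The reverse was found at 7, or 0.754%, against 3.97% of all. In carbohydrate, 50 had peaks on all arrays at 1h and none at 6h (5.39%, against 3.33% of all), and 25 the reverse (2.69%, against 5.73%). Counting only peaks listed for both strands, 102 promoters had them at 1h alone and 2 at 6h alone in ethanol, and 38 and 10 in carbohydrate. A peak with 1 gene cannot enter these counts, so the shares of all regions above do not apply to them. The ethanol lists were also longer at 1h, with 5916 to 9387 peaks against 3602 to 5605 at 6h, while the carbohydrate lists overlapped in length. Those at 1h alone in ethanol included Prelid1 with Rab24, Psmc2 (a subunit of the proteasome's regulatory cap) with Dnajc2, Nacc1 with Trmt1, F8 (coagulation factor VIII) with Fundc2, and Slbp (the histone mRNA binding protein) with Tacc3. Those at 6h alone in carbohydrate included Polh with Xpo5, Rpl7 (a ribosomal protein) with Rdh10, and Iapp with Slco1a5. Between diets at 1h, 30 promoters had peaks on all ethanol and no carbohydrate arrays (3.23%, against 1.68% of all), and 3 the reverse (0.323%, against 0.394%).

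Gene lists were read by role, beside all bidirectional promoters and all promoters, from 1h to 6h. Of the bidirectional promoters, 87 were higher and 64 lower in carbohydrate (median 0.00). In ethanol 1.19% of them were higher and 27.6% lower (median -0.22). Of all promoters, 17% were higher and 6.92% lower in carbohydrate, and 7.83% higher and 16.2% lower in ethanol. Each list holds few bidirectional promoters, and no list was tested against these shares. Of 38 genes known from textbooks as divergent pairs, 30 were in the peak lists and 25 were found at 13 bidirectional promoters. Of the 13, 12 had a peak listed for both strands and 2 had one on at least 10 arrays. From 1h to 6h, 3 were higher and 0 lower in carbohydrate (median 0.17), and 1 was higher and 4 lower in ethanol (median -0.21). Surf1, an assembly factor of cytochrome oxidase, and Surf2 had peaks on 12 arrays. Their window read 0.65, 0.69 and 0.93 in ethanol at 1h and 0.20, 0.14, 0.28 and 0.21 at 6h, a difference of -0.55 (SE 0.13, limma adjusted p = 0.00423). At Brca1, which acts in repair of DNA breaks, and Nbr1, the ethanol arrays read 0.54, 0.12 and 0.41 at 1h and 0.15, -0.16, -0.22 and -0.07 at 6h, a difference of -0.43 (SE 0.12, limma adjusted p = 0.0102). The second 1h array there lay below the highest 6h array. Pus3, a pseudouridine synthase, with Ddx25 fell by 0.44, and Tap1 with Psmb9 was the fourth fall. The rise was that of Pdcd10 and Serpini1. Near the starts Surf1 fell by 0.32 (limma adjusted p = 0.012), while Brca1 (-0.25), Pus3 (-0.09) and Tap1 (-0.16) missed the limma threshold.

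At Hspd1 and Hspe1, the mitochondrial chaperonin and its cofactor, carbohydrate arrays read 0.34, 0.47 and 0.27 at 1h and 0.67, 0.69, 1.00 and 1.14 at 6h. The groups did not overlap and the difference was 0.52 (SE 0.16, limma adjusted p = 0.0192). The window lay 3264 bp from Hspd1 and 3554 bp from Hspe1, away from the printed sequence, and within 500 bp of the starts the difference was -0.05. Psmb1 (a proteasome subunit) and Tbp (the TATA-binding protein) rose by 0.43 in carbohydrate, and there too the sign turned near the starts (-0.08).

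Of 42 DNA repair genes, 35 were in the peak lists and 14 were found at 14 bidirectional promoters. From 1h to 6h, 3 were higher and 2 lower in carbohydrate (median 0.06), against 17% and 6.92% of all promoters. In ethanol 0 were higher and 5 lower (median -0.16), against 7.83% and 16.2% of all. Lig4, the ligase of end joining, with Abhd13 had peaks on 13 arrays and rose by 0.62 in carbohydrate, from -0.04, -0.07 and 0.05 to 0.46, 0.86, 0.38 and 0.69 (SE 0.17, limma adjusted p = 0.00975). Mre11, a nuclease of break repair, rose by 0.48 and Xpc, a damage sensor of excision repair, by 0.36. With probes near the start Xpc read -0.18, and Lig4 (0.07) and Mre11 (0.18) missed the limma threshold. Ung (uracil glycosylase) with Alkbh2 fell in both diets, by 0.53 in carbohydrate and 0.59 in ethanol, and so did Xrcc6 (Ku70), by 0.39 and 0.49. In ethanol, Parp2 fell by 0.45 and Ogg1 (8-oxoguanine glycosylase) by 0.36, beside Brca1. Near the starts the falls at Ung, Xrcc6, Parp2 and Ogg1 missed the limma threshold. Pms2 had peaks on 10 arrays and no call.

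Of 40 mitochondrial and translation genes, 37 were in the peak lists and 15 were found at 13 bidirectional promoters, with peaks on at least 10 arrays at 4. From 1h to 6h, 2 were higher and 1 lower in carbohydrate (median 0.08), against 17% and 6.92% of all promoters. In ethanol 0 were higher and 3 lower (median -0.28), against 7.83% and 16.2% of all. Besides Hspd1, Surf1 and Eef2, the calls were Atp5f1a (ATP synthase subunit), which rose by 0.44 in carbohydrate, and Timm23 (inner membrane import channel), which fell by 0.57 in ethanol. Both turned sign under another measure, Atp5f1a to -0.08 near the start and Timm23 to 0.02 as the mean of its whole region. Ndufa9 and Mrps18b had peaks on 15 and 13 arrays without a call.

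Of 44 known NF-kB target genes, 37 were in the peak lists and 3 lay at 2 bidirectional promoters, where 13.5% of all 14331 listed genes lay. The promoters were that of Nfkbib (an inhibitor of NF-kB) and that shared by Tap1 (the peptide transporter of antigen presentation) and Psmb9 (an immunoproteasome subunit). No array listed a peak for both Tap1 and Psmb9. Their window lay 4132 bp from Tap1 and 3580 bp from Psmb9, outside the printed sequence with its consensus. It read 0.28, 0.37 and 0.49 in ethanol at 1h and 0.03, -0.12, -0.05 and 0.03 at 6h, a difference of -0.41 (SE 0.11, limma adjusted p = 0.01). In carbohydrate the values of 0.33, 0.17 and 0.14 at 1h and -0.01, 0.13, 0.23 and 0.00 at 6h overlapped. Of 36 immediate early genes 0 lay at a bidirectional promoter. Of 25 acute phase genes 2 did, Fgb (fibrinogen) and Lcn2 (lipocalin), with no call from 1h to 6h.

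Of 38 cell cycle genes, 4 lay at bidirectional promoters: Aurka, Cdk2, Mcm7 and Foxm1, the factor that drives entry into mitosis. Foxm1 was lower at 6h than at 1h in both diets, by 0.35 in carbohydrate and 0.55 in ethanol, with no peak listed for both strands. Its ethanol arrays read 0.62, 0.35 and 0.59 at 1h and -0.01, -0.07, -0.07 and 0.03 at 6h. Near the starts the differences were -0.07 and -0.02 and missed the limma threshold. Of the cell type markers, 0 of the hepatocyte, Kupffer, stellate, sinusoidal endothelial and cholangiocyte lists lay at a bidirectional promoter. From the lymphocyte and neutrophil list 1 of 9 did, Cd3g, which lies beside Cd3d, another gene of the T cell receptor complex. That promoter had peaks on 12 arrays and a mean signal of 0.44 ± 0.14 (SD, n = 20) with no call.

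Promoters with the NF-kB consensus and those without it had similar recurrence, as a description. Among members with a RefSeq promoter, 127 held it at a gene and 751 did not. Both sets had peaks on a median of 4 arrays, and 12.6% and 11.6% had peaks on at least 10. In ethanol 30.7% and 26.9% were lower at 6h than at 1h, and in carbohydrate 11% and 5.73% were.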

How the data were processed

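The series holds NF-kB p65 ChIP-chip of 20 rat liver samples on 2-colour arrays. The authors deposited a peak list per array and a probe table. Per the file headers, each peak has a score and a false discovery rate, used here as a listed p-value; peak caller, normalization and genome build are not given in the sources used here. The deposited probe values are log2 ratios of 713735 probes.

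Probes at most 1000 bp apart were joined into tiled regions. A promoter's signal was the mean of the best 500 bp window (at least 4 probes) over all arrays, with the sign turned. Groups were compared with limma 3.58.1 (R 4.3.3; lmFit, eBayes with trend) over 14540 promoters, Benjamini-Hochberg adjusted, and shares with exact permutation tests (Python 3.11.15, scipy 1.17.1). The limma step was tested on simulated data with independent normal noise and no run or slide effects. For 6h against 1h it recovered 24% (carbohydrate) and 20% (ethanol) of changes of 0.4 on the log2 scale. Of changes of 0.8 it recovered 88% and 89%, with 8 and 4 false calls among 14540 promoters. Changes near 0.4 were thus mostly missed. Array number limits precision. Alternatives were other signal measures, scaling, runs, slides, and left-out arrays.

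The members and lists were chosen with earlier results of these data known. Named promoters were the 15 with peaks on most arrays, the 5 largest rises and falls per comparison, list genes with peaks on at least 10 arrays or a call, and up to 5 with peaks on all arrays of a group and none of the other; for comparisons with 0h, counts are given instead, except for 1 promoter, and 1 other promoter that the rule names is not reported here. Prelid1 with Rab24 belongs to the last kind. Genes with several RefSeq starts were taken at the first listed. Comparisons over both diets, differences between diets in the time changes, the third run alone, probes within 500 bp of a start, CpG classes, equal list lengths and same-strand promoters were added after seeing the data. Between diets at 1h, same-numbered arrays share slides (correlations of deviations 0.504, 0.189 and 0.280), and with that block 0 bidirectional promoters differed at 1h. Between diets at 0h the correlations of same-numbered arrays were 0.041, 0.355 and 0.413.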

Additional observations from a re-analysis of the deposited data

Results flagged for a closer look

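In groups of 4 arrays, 214 sets of values were searched for an array far from the other 3, and 13 were found; chance alone gives about 5%. The first carbohydrate array at 6h, the only array of the fourth run, was low in the share of bidirectional peaks (2.02%) and in that share within CpG-rich promoters (2.80%). It was also low in signal at Akap3 and Ndufa9 (-0.10), Amh, Plekhj1 and Sf3a2 (0.060) and the Surf1 cluster (0.25). The fourth carbohydrate array at 6h stood apart at Pfdn6 and Wdr46 (0.46), Brca1 and Nbr1 (0.0034) and Defb105b and Defb15 (0.89). Among ethanol arrays at 6h, the first stood apart at Jagn1 and Ogg1 (0.0245), the second at Grin2d and Kdelr1 (-0.43), the third at Igflr1, Lin37, Psenen and U2af1l4 (0.55), and the fourth at Desi1 and Xrcc6 (0.18) and Cilk1 and Fbxo9 (0.41).

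The change from 1h to 6h differed between diets within the third run (limma, adjusted p under 0.05) at 154 bidirectional promoters, and at 0 over all 20 arrays. Values are given for the 27 of them that the rule for named promoters takes. Among these, ethanol minus carbohydrate in log2 units was most negative at Rdh10 and Rpl7 (-1.18), E230034O05Rik and Prrc2a (-1.17), Emg1 and Phb2 (-1.12), Ppcs and Zmynd12 (-1.07) and Parg and Timm23 (-1.01). Next came C9h2orf49 and Tgfbrap1 (-0.95), Lrrc73, Polr1c and Yipf3 (-0.93), Orc3 and Rars2 (-0.92), Alg2 and Sec61b (-0.91), Ddx25 and Pus3 (-0.90), Cfap119 and Rnf40 (-0.88), Cdc40 and Wasf1 (-0.85) and Psmb1 and Tbp (-0.84). Smaller differences were found at Cisd1 and Ipmk (-0.80), Mrpl41 and Pnpla7 (-0.78), F8 and Fundc2 (-0.74), Abhd13 and Lig4 (-0.72), Col4a3 and Col4a4 (-0.71), Ptges3l1 and Sts (-0.70), Arl5b and Nsun6 (-0.70) and Ccnb1ip1, Parp2 and Rpph1 (-0.68). The others of the 27 were Hirip3 and Ino80e (-0.66), Bmx and Pir (-0.63), Mapk14 and Slc26a8 (-0.61), Ppp1r14a and Spint2 (-0.60), Lman2 and Rgs14 (-0.58) and Lsm3 and Xpc (-0.55).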

How the results depend on the processing

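The lower share at 6h than at 1h over both diets kept its direction and its side of the threshold under each alternative run, with -4.20 points under the replicate block and -4.38 to -3.76 when single arrays were left out. The change from 0h to 1h in carbohydrate turned from -0.46 to 0.721 points with peaks anywhere in a region with genes on both strands, and ranged from -1.11 to 0.586 without single arrays, turning without the second carbohydrate array at 0h and, at 0.0832, the first at 1h. Diet over all times turned from -0.25 to 0.0015 at a false discovery rate of at most 0.05 and to 0.205 with equal list lengths, and ranged from -0.515 to 0.0842 without single arrays, turning without the second carbohydrate (0.0842) or the third ethanol (0.0501) array at 0h. The score rank difference ranged from -1.22 to 1.67 without single groups. Recurrence was 4.46 arrays with peaks within 1000 bp of a start and 3.59 at the stricter rate. The signal difference to 1-gene promoters was 0.00896 as a regional mean, -0.0141 near starts, -0.00182 at shared lengths (31 against 542 promoters) and -0.0172 against same-strand promoters, and it ranged from 0.0197 to 0.0487 without single groups.

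Counts of bidirectional promoters called by limma moved as follows. The share of all promoters under each setting is not given beside them. The counts thus show how calls depend on processing, not how bidirectional promoters differ from others. Regional means gave 297 (1h against 0h, carbohydrate), 88 (6h against 0h), 297 (6h against 1h), and in ethanol 51, 0 and 470. Probes near starts gave 31 and 66 against 0h in carbohydrate and 0 at 1h in ethanol. The deposited direction gave 44, 83 and 8 in carbohydrate and 0, 0 and 5 in ethanol. Scaling gave 100 (6h against 1h, carbohydrate), 6 and 43 (1h and 6h against 0h, ethanol) and 1 for diet at 0h. The run term gave 0 and 3 against 0h in carbohydrate, 0 and 64 in ethanol, 4 for diet at 1h and 31 for the difference between diets. The replicate block gave 7 and 20 against 0h in ethanol. Close pairs, which are 444 promoters, gave 0 and 6 there. Slides as a random block gave 2 and 1 there, and 1 for diet at 1h. Only the compared arrays gave 209 (6h against 0h, carbohydrate), 0 and 0 against 0h in ethanol and 4 for diet at 6h. The third run gave 38 and 26 for diet at 1h and 6h and 154 for the difference. Without single arrays, counts ran from 14 to 74 (1h against 0h), 15 to 187 (6h against 0h, lowest without the second 0h array) and 61 to 118 (6h against 1h) in carbohydrate, from 0 to 121, 0 to 76 and 127 to 282 in ethanol, and from 0 to 1 and 0 to 20 for diet at 0h and 1h.

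Of 42 named differences, 14 kept sign and call near starts (20 missed the threshold, 8 turned), 25 as regional means (14 missed, 3 turned) and 0 in the deposited direction (19 missed, 23 turned). No sign turned under scaling, the run term, slides, the replicate block, the third run or left-out arrays. Near starts they were -0.24 (Col4a3 and Col4a4), -0.065 (Ormdl1 and Pms1), -0.046 (Hspd1 and Hspe1), -0.085 (Psmb1 and Tbp), -0.18 (Lsm3 and Xpc) and -0.079 (Atp5f1a and Haus1) in carbohydrate, and -0.11 (Cops2 and Galk2) and -0.14 (Pdcd10 and Serpini1) in ethanol. Regional means were -0.046 (Atp5f1a), 0.0069 (Parp2) and 0.018 (Timm23). The deposited direction gave, in carbohydrate, -0.21 (Col4a3), -0.48 (Krtap14), -0.064 (Fhl4), -0.41 (Bmx), 0.22 (Esrp2), -0.014 (Hspd1), -0.026 (Tbp), 0.065 (Xrcc6), -0.051 (Xpc) and -0.053 (Atp5f1a). In ethanol it gave -0.0075 (Galk2), -0.10 (Polh), -0.15 (Pdcd10), -0.32 (Krtap14), -0.29 (Or52e7), 0.12 (Sts), 0.17 (Esrp2), 0.023 (Eef2), 0.51 (Ppcs), 0.11 (Brca1), 0.10 (Tap1), 0.13 (Ogg1) and 0.076 (Timm23). The cause was not tested. Of 293 refits of named differences without 1 array, 80 missed the threshold. Signals near 0 and groups of 3 or 4 arrays limit what can be called.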
